A study of Mus musculus with 2 samples.

Results

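The genes that copy DNA were followed in the transcriptome of spleen cells taken from *Listeria monocytogenes*-infected mice that lack Ch25h, against infected C57BL/6 mice. The group was chosen by name as 48 genes of DNA replication and S phase, among 30538 genes listed in the deposited count table. Earlier results of these data were known when it was chosen, so its contrast with other genes is a description and not a test. All 48 are listed, and all 48 passed the filter on low values, a mean over both libraries of at least 1 CPM (counts relative to library size, scaled by TMM, the trimmed mean of M-values), which 11972 genes passed.

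Replication starts at origins, where the origin recognition complex, CDC6 and CDT1 load the ring-shaped MCM2-7 helicase in G1. At the start of S phase CDC45 and the GINS complex join the ring and activate it, primase and the DNA polymerases copy the strands, and the clamp PCNA, loaded by replication factor C, holds the polymerases on the template. Replication protein A coats single strands, ribonucleotide reductase and thymidylate synthase supply deoxynucleotides, and chromatin assembly factor 1 places histones behind the fork. Most of these genes are targets of E2F transcription factors, which retinoblastoma family proteins hold back until cyclins and their kinases release them. In the infected spleen, dividing cells include expanding lymphocytes and myeloid precursors, whereas many resident macrophages divide slowly.

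The study compared 2 libraries of total RNA, 1 from Ch25h-/- mice and 1 from C57BL/6 mice. Ch25h encodes the enzyme that makes 25-hydroxycholesterol from cholesterol, and C57BL/6 is the inbred strain used here as the wild type. Both groups received 100000 *Listeria monocytogenes*, a bacterium that grows inside cells, into a vein. After 3 days about 100000 CD11b+ Ly6G- cells with low Ly6C were sorted from the spleen. Sex, age, littermate status and the number of mice behind each library are not given in the labels, and no uninfected mice were analysed here.

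The Ch25h-/- library held 15986392 gene counts and the C57BL/6 library 16957371. Each genotype has a single library, so nothing can be tested against replicates and no p-value is given. Each log2 ratio (Ch25h-/- over C57BL/6) compares these 2 libraries, and its exact 95% interval covers counting error only. A gene was called when the ratio was at least 2-fold, or at least 1.5-fold under the milder rule, and its interval lay on 1 side of equality. Ch25h had 0 counts in the Ch25h-/- library and 3 in the C57BL/6 library, whose Poisson intervals overlap, so this gene does not check the genotype labels at this depth. The labels call the cells splenic macrophages. The macrophage marker Csf1r had 3786 counts in the Ch25h-/- library and 5542 in the C57BL/6 library, but 16 natural killer (NK) cell markers together held 22973 and 14327 CPM, against 489 and 745 CPM for 15 macrophage markers. Per length, the median NK cell marker stood at 805 TPM (counts divided by exon length and scaled to a common total) in the Ch25h-/- library and 384 TPM in the C57BL/6 library. The median macrophage marker stood at 13.5 and 37.6 TPM in the same order of libraries.

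Promoter sequences are shown because the genes were chosen by function and not by sequence, and because most of them differed in the same direction. RefSeq promoter windows on GRCm38.p6 (250 bases before to 50 after a start) were found for 40 of the 48 genes by symbol, 46 windows in all. Below are the 200 bases before the start of the 3 genes with the largest and the 3 with the smallest log2 ratio among those 40, each 5′ to 3′ on the gene's own strand. Capitals mark matches on either strand to the E2F words TTTCCCGC, TTTCGCGC, TTTGCCGC and TTTGGCGC, and on either strand to the CCAAT box. They also mark the cell cycle homology word TTTGAA and the variant of it that reads TTCGAA. The windows are E2f7 at chr10:110745239-110745438 (plus strand), Hells at chr19:38930790-38930989 (plus strand), Pola1 at chrX:93632156-93632355 (minus strand), Rfc4 at chr16:23127731-23127930 (minus strand), Cdt1 at chr8:122567815-122568014 (plus strand) and Gins3 at chr8:95633359-95633558 (plus strand).
E2f7: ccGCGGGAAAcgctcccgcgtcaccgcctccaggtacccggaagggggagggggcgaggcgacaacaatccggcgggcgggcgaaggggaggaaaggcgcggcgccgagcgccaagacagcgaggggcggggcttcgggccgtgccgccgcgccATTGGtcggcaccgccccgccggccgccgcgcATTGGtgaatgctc
Hells: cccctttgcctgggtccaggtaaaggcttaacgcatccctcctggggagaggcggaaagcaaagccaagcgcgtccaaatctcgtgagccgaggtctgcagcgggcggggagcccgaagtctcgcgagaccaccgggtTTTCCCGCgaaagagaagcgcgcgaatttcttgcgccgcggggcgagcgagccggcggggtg
Pola1: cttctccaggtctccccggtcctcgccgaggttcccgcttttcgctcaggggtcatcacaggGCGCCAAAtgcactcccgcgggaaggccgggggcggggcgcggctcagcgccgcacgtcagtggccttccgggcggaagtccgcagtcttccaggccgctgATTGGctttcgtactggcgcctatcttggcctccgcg
Rfc4: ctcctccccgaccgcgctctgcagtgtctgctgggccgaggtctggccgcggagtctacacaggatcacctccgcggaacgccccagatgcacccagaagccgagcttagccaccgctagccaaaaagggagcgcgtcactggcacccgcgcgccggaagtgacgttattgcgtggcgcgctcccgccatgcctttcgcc
Cdt1: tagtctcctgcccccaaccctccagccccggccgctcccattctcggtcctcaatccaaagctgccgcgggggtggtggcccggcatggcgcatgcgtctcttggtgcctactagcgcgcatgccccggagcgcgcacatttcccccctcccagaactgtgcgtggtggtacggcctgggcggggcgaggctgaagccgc
Gins3: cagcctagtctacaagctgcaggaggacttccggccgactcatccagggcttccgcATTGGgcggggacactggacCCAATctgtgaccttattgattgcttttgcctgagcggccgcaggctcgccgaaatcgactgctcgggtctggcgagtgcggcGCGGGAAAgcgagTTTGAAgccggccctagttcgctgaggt

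Both ends of the range carried E2F words. E2f7, Hells and Pola1 (log2 ratios 1.49, 1.43 and 1.20) each had 1 match before the start. Gins3 (-0.47) also had 1 before the start, Cdt1 (-0.22) had 1 after it, outside the stretch shown, and Rfc4 (0.15) had none. Of the 46 windows, 16 (34.8%) held an E2F word, against 3.76% of 11424 windows of the other measured genes and 2.26% of all 32851 windows. CCAAT was found in 60.9% of the 46 windows, against 37.8% of windows of the other measured genes and 37.4% of all windows. The cell cycle homology words were found in 17.4%, against 14.1% and 19.2%, and the GC box GGGCGG (both strands) in 76.1%, against 61.5% and 35.7%. Of the 22 E2F matches, 4 shared bases with another E2F match and 1 shared bases with a CCAAT match. Within the group the median log2 ratio was 0.56 for the 16 genes with a match and 0.60 for the 24 without, and the ranges overlapped. These matches describe the windows and are not evidence of binding.

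Replication genes were mostly higher in the Ch25h-/- library, by amounts mainly under 2-fold. Of the 48 genes, 45 had a log2 ratio above 0, against 51.8% of all measured genes. The median log2 ratio was 0.59, against 0.01 over all measured genes, with quartiles of 0.39 and 0.79. By the 2-fold rule 7 genes (14.6%) were called higher, against 2.07% of all measured genes, and none was called lower, against 5.77%. By the 1.5-fold rule 26 genes (54.2%) were called higher, against a background of 7.35%, and none lower, against 11.2%. The called genes by the 2-fold rule were Gins1, E2f7, Hells, Pola1, Rpa3, Ccne2 and Rrm2. Intervals lay wholly above 0 for 42 genes and wholly below 0 for Cdt1 and Gins3, and they held 0 for Orc1, Rfc4, Rfc2 and Gins4. Summed over the group, the genes took 3416 CPM in the Ch25h-/- library and 2324 CPM in the C57BL/6 library (log2 ratio 0.56, interval 0.54 to 0.57). In sorted bulk cells, a different number of dividing cells and a different amount of this RNA per cell cannot be told apart.

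**Figure D1:**
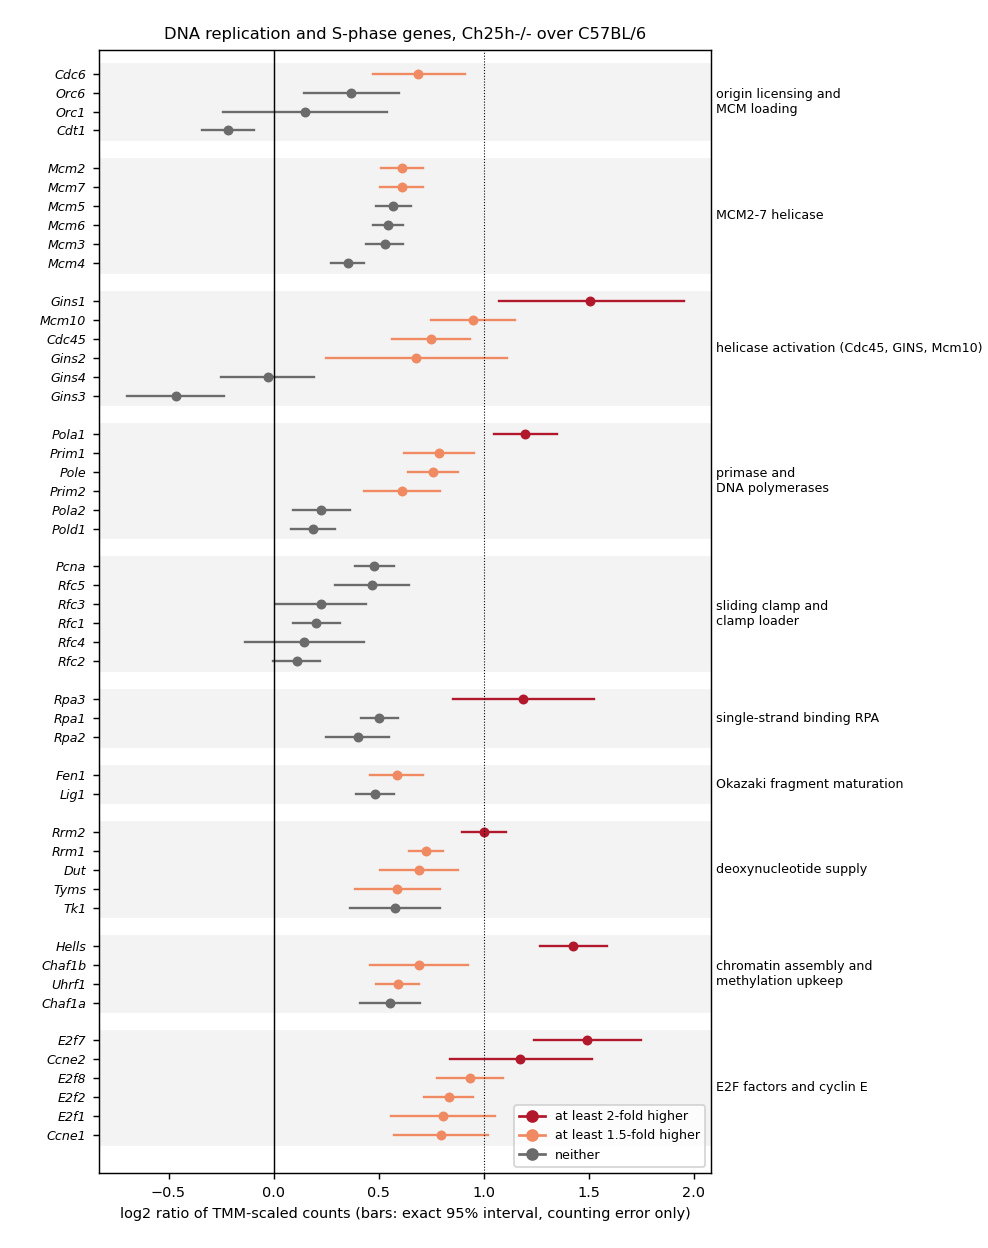
Log2 ratio (x axis, Ch25h-/- over C57BL/6, 1 library each) of the 48 genes, ordered within 10 roles, with exact 95% intervals for counting error as bars and the 2-fold line dotted. Most points lie between 0 and 1, the MCM2-7 genes lie close together, and Gins1 (1.51) and Gins3 (-0.47) mark the 2 ends.

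The origin licensing genes went in different directions, and their sum was the least shifted of the 10 roles, although the clamp and its loader had the lower median log2 ratio (0.21, against 0.26). Summed, the 4 genes took 119 CPM in the Ch25h-/- library and 113 CPM in the C57BL/6 library, a log2 ratio of 0.08 (-0.02 to 0.17). Against the summed other 44 genes of the group, the log2 odds ratio was -0.50 (exact interval -0.59 to -0.40). Cdc6, the ATPase that helps to load the helicase, had 433 counts (27.3 CPM) in the Ch25h-/- library and 290 counts (16.9 CPM) in the C57BL/6 library (0.69, 0.47 to 0.91). Cdt1, its loading partner, went the other way, with 981 counts (61.9 CPM) in the Ch25h-/- library and 1231 counts (71.9 CPM) in the C57BL/6 library (-0.22, -0.34 to -0.09). Between Cdc6 and Cdt1 the log2 odds ratio was 0.91 (0.65 to 1.16). This pair, like the other gene pairs set against each other below, was chosen after its values were seen. Its interval describes the difference and does not test it. Among the origin recognition complex genes, Orc6 had 22.7 CPM in the Ch25h-/- library and 17.5 CPM in the C57BL/6 library (0.37). Orc1, with 115 counts in the Ch25h-/- library and 112 in the C57BL/6 library, gave 0.15 with an interval from -0.24 to 0.54, so no difference was detectable at this depth. Per length, Cdt1 was the most abundant of the 4, at 74.0 TPM in the Ch25h-/- library and 88.5 TPM in the C57BL/6 library.

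The MCM2-7 helicase genes lay close together. All 6 had intervals above 0, their log2 ratios lay between 0.35 and 0.61, and Mcm2 and Mcm7 were called by the 1.5-fold rule. Mcm2 had 1974 counts (125 CPM) in the Ch25h-/- library and 1395 counts (81.5 CPM) in the C57BL/6 library, and Mcm7 had 118 and 77.1 CPM, both with a log2 ratio of 0.61. Mcm5 (171 CPM in the Ch25h-/- library, 115 CPM in the C57BL/6 library, 0.57) and Mcm3 (150 and 104 CPM, 0.53) followed. Mcm6 had 3833 counts (242 CPM) in the Ch25h-/- library and 2839 counts (166 CPM) in the C57BL/6 library (0.54, 0.47 to 0.61). Mcm4 was the smallest, with 2882 counts (182 CPM) in the Ch25h-/- library and 2437 counts (142 CPM) in the C57BL/6 library (0.35, 0.27 to 0.43). It was the only one of the 6 whose counts differed from the sum of the other 5 (log2 odds ratio -0.21, -0.30 to -0.13). The ring holds 1 of each subunit, but levels per length were uneven in both libraries. In the Ch25h-/- library they ran from 67.2 TPM for Mcm2 to 194 TPM for Mcm6, and in the C57BL/6 library from 45.3 TPM for Mcm2 to 153 TPM for Mcm4. The lengths count all annotated exons (6956 bases for Mcm2, 3589 for Mcm4), so this order depends on the annotation. It does not measure the balance of subunits.

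The genes that activate the helicase had the widest spread of all roles. Gins1, a GINS subunit gene (chromosome 2, 150905400 to 150931280, GRCm38), had 163 counts (10.3 CPM) in the Ch25h-/- library and 62 counts (3.62 CPM) in the C57BL/6 library. Its log2 ratio of 1.51 (1.08 to 1.95) was the largest in the group. Gins3, another subunit gene of the same complex (chromosome 8, 95633453 to 95645060), was the lowest of the group, with 258 counts (16.3 CPM) in the Ch25h-/- library and 385 counts (22.5 CPM) in the C57BL/6 library (-0.47, -0.70 to -0.24). Between these subunits the log2 odds ratio was 1.97 (1.48 to 2.48). Gins4, the most abundant gene of this role per length (56.9 TPM in the Ch25h-/- library, 59.8 TPM in the C57BL/6 library), had 324 counts (20.5 CPM) in the Ch25h-/- library and 357 counts (20.9 CPM) in the C57BL/6 library. Its log2 ratio was -0.03 (-0.25 to 0.19), so no difference was detectable at this depth. Gins2 had 114 counts in the Ch25h-/- library and 77 in the C57BL/6 library (0.68, 0.25 to 1.11), but 2758 of its exon bases overlap Gse1 on the opposite strand. Gse1 had far more counts, 3294 in the Ch25h-/- library and 3240 in the C57BL/6 library. Per length, Gins1 stood at 25.5 TPM and Gins3 at 22.5 TPM in the Ch25h-/- library. In the C57BL/6 library they stood at 9.24 and 32.1 TPM, the reverse order. By counts Gins3 was above Gins1 in both libraries, so the order per length depends on the annotated exons (1516 bases for Gins1, 2709 for Gins3). No interval was computed for it. Cdc45, which travels with the helicase, had 38.5 CPM in the Ch25h-/- library and 22.9 CPM in the C57BL/6 library (0.75). Mcm10, an activator that is no subunit of the ring, had 581 counts (36.7 CPM) in the Ch25h-/- library and 325 counts (19 CPM) in the C57BL/6 library (0.95, 0.75 to 1.15).

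Among primase and polymerase genes, subunits of 1 enzyme again differed. Pola1, the catalytic subunit of polymerase alpha (chromosome X, 93304767 to 93632155), had 1143 counts (72.1 CPM) in the Ch25h-/- library and 538 counts (31.4 CPM) in the C57BL/6 library (1.20, 1.05 to 1.35). Pola2, its accessory subunit, had 60.0 CPM in the Ch25h-/- library and 51.2 CPM in the C57BL/6 library (0.23, 0.09 to 0.36), and the log2 odds ratio between them was 0.97 (0.77 to 1.17). The primase genes lay between them, with Prim1, the catalytic subunit, at 48.7 and 28.2 CPM (0.79) and Prim2 at 38.5 and 25.2 CPM (0.61), the Ch25h-/- library first in each pair. Pole, the leading strand polymerase, had 1474 counts (93.0 CPM) in the Ch25h-/- library and 940 counts (54.9 CPM) in the C57BL/6 library (0.76, 0.64 to 0.88). Pold1, the lagging strand polymerase, had 1480 counts (93.4 CPM) in the Ch25h-/- library and 1404 counts (82.1 CPM) in the C57BL/6 library (0.19, 0.08 to 0.29). These catalytic subunits differed from each other by a log2 odds ratio of 0.57 (0.41 to 0.73). Per length Pold1 was the most abundant of the 6 in both libraries, at 72.1 TPM in the Ch25h-/- library and 65.3 TPM in the C57BL/6 library.

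The clamp and its loader were only slightly higher, and none of the 6 genes was called by either rule. Summed, they took 379 CPM in the Ch25h-/- library and 308 CPM in the C57BL/6 library (0.30, 0.24 to 0.35), with a log2 odds ratio of -0.29 (-0.35 to -0.24) against the rest of the group. Pcna, the clamp, had 2136 counts (135 CPM) in the Ch25h-/- library and 1655 counts (96.7 CPM) in the C57BL/6 library (0.48, 0.39 to 0.57). It was the most abundant of all 48 genes per length, at 211 TPM in the Ch25h-/- library and 156 TPM in the C57BL/6 library. The table also lists the copy Pcna-ps2 (99.2% identical over 781 bases), with 1048 counts in the Ch25h-/- library and 758 in the C57BL/6 library, and both together gave 0.51. The loader genes Rfc5 (37.7 CPM in the Ch25h-/- library, 27.3 CPM in the C57BL/6 library, 0.47), Rfc3 (24.0 and 20.6 CPM, 0.23) and Rfc1, the large subunit (86.5 and 75.2 CPM, 0.20), had intervals above 0. Those of Rfc4 (211 counts in the Ch25h-/- library, 206 in the C57BL/6 library, 0.15) and Rfc2 (1309 counts in each library, 82.6 CPM in the Ch25h-/- library and 76.5 CPM in the C57BL/6 library, 0.11, -0.00 to 0.22) held 0. For Rfc2 952 exon bases overlap Lat2 on the opposite strand, and Lat2 had 2352 counts in the Ch25h-/- library and 1821 in the C57BL/6 library.

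Replication protein A has 3 subunits, and the smallest stood apart. Rpa3 (chromosome 6, 8255936 to 8259173) had 236 counts (14.9 CPM) in the Ch25h-/- library and 112 counts (6.55 CPM) in the C57BL/6 library (1.19, 0.86 to 1.52). Rpa1, the main DNA-binding subunit and the most abundant of the 3 per length, had 2432 counts (154 CPM) in the Ch25h-/- library and 1854 counts (108 CPM) in the C57BL/6 library (0.50, 0.41 to 0.59). Rpa2 had 814 counts (51.4 CPM) in the Ch25h-/- library and 666 counts (38.9 CPM) in the C57BL/6 library (0.40, 0.25 to 0.55). Rpa3 differed from Rpa1 by a log2 odds ratio of 0.68 (0.34 to 1.03). The genes that finish Okazaki fragments were both higher. The flap nuclease gene Fen1 had 1224 counts (77.3 CPM) in the Ch25h-/- library and 880 counts (51.4 CPM) in the C57BL/6 library (0.59, 0.46 to 0.71), and 1909 of its exon bases overlap another gene on the opposite strand. The ligase gene Lig1 had 2303 counts (145 CPM) in the Ch25h-/- library and 1780 counts (104 CPM) in the C57BL/6 library (0.48, 0.39 to 0.57).

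The deoxynucleotide genes were higher as a set, with all 5 intervals above 0. Summed, they took 425 CPM in the Ch25h-/- library and 248 CPM in the C57BL/6 library (0.78, 0.73 to 0.84), a log2 odds ratio of 0.26 (0.20 to 0.31) against the rest of the group. Rrm2, the small subunit of ribonucleotide reductase (chromosome 12, 24708241 to 24714146), had 2100 counts (133 CPM) in the Ch25h-/- library and 1134 counts (66.3 CPM) in the C57BL/6 library. Its log2 ratio was 1.0 (0.90 to 1.11), at the 2-fold line, and it lost the call under DESeq2 scaling, under scaling by total counts and with a prior count. Rrm1, the large subunit, had 197 CPM in the Ch25h-/- library and 119 CPM in the C57BL/6 library (0.73, 0.64 to 0.81), and the log2 odds ratio of Rrm2 to Rrm1 was 0.27 (0.14 to 0.41). Dut, which removes dUTP, had 37.7 CPM in the Ch25h-/- library and 23.4 CPM in the C57BL/6 library (0.69). The thymidylate genes stood on either side of the 1.5-fold line. Tyms, thymidylate synthase, had 31.1 CPM in the Ch25h-/- library and 20.7 CPM in the C57BL/6 library (0.59). Tk1, thymidine kinase, had 427 counts (27.0 CPM) in the Ch25h-/- library and 309 counts (18.1 CPM) in the C57BL/6 library (0.58, 0.36 to 0.79).

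Chromatin genes of the fork were led by Hells, a remodelling helicase needed for DNA methylation. Hells (chromosome 19, 38930915 to 38971051) had 1132 counts (71.5 CPM) in the Ch25h-/- library and 455 counts (26.6 CPM) in the C57BL/6 library (1.43, 1.27 to 1.59). Uhrf1, which brings the maintenance methyltransferase to new DNA, had 1860 counts (117 CPM) in the Ch25h-/- library and 1333 counts (77.9 CPM) in the C57BL/6 library (0.59, 0.49 to 0.69). The log2 odds ratio of Hells to Uhrf1 was 0.83 (0.64 to 1.02). Of the chromatin assembly factor genes, Chaf1b had 24.0 CPM in the Ch25h-/- library and 14.8 CPM in the C57BL/6 library (0.69). Chaf1a had 953 counts (60.2 CPM) in the Ch25h-/- library and 702 counts (41.0 CPM) in the C57BL/6 library (0.55, 0.41 to 0.69). Their log2 odds ratio was 0.14, with an interval from -0.13 to 0.42 that held 0. For Chaf1a 4648 exon bases overlap Ubxn6 on the opposite strand. Ubxn6 had 519 counts in the Ch25h-/- library and 725 in the C57BL/6 library, the opposite direction to Chaf1a.

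The E2F and cyclin E genes were the most shifted role. All 6 were at least 1.5-fold higher, and summed they took 254 CPM in the Ch25h-/- library and 133 CPM in the C57BL/6 library (0.93, 0.86 to 1.01). Against the rest of the group the log2 odds ratio was 0.40 (0.32 to 0.48). E2f7, an atypical E2F that represses E2F targets (chromosome 10, 110745439 to 110787384), had 466 counts (29.4 CPM) in the Ch25h-/- library and 179 counts (10.5 CPM) in the C57BL/6 library (1.49, 1.24 to 1.75). Its relative E2f8 had 920 counts (58.1 CPM) in the Ch25h-/- library and 520 counts (30.4 CPM) in the C57BL/6 library (0.93, 0.78 to 1.09). Of the activating factors, E2f2, the most abundant of the role per length, had 1610 counts (102 CPM) in the Ch25h-/- library and 976 counts (57 CPM) in the C57BL/6 library (0.83, 0.72 to 0.95). E2f1 had 22.6 CPM in the Ch25h-/- library and 12.9 CPM in the C57BL/6 library (0.81). E2f7 differed from E2f8 by a log2 odds ratio of 0.56 (0.26 to 0.86) and from E2f1 by 0.68 (0.33 to 1.04). Cyclin E partners CDK2 at the start of S phase. Ccne2 (chromosome 4, 11191351 to 11204779) had 230 counts (14.5 CPM) in the Ch25h-/- library and 110 counts (6.43 CPM) in the C57BL/6 library (1.18, 0.84 to 1.52). Ccne1 had 437 counts (27.6 CPM) in the Ch25h-/- library and 272 counts (15.9 CPM) in the C57BL/6 library (0.80, 0.57 to 1.02), and the interval of the log2 odds ratio between these genes, -0.03 to 0.79, held 0.

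**Figure D2:**
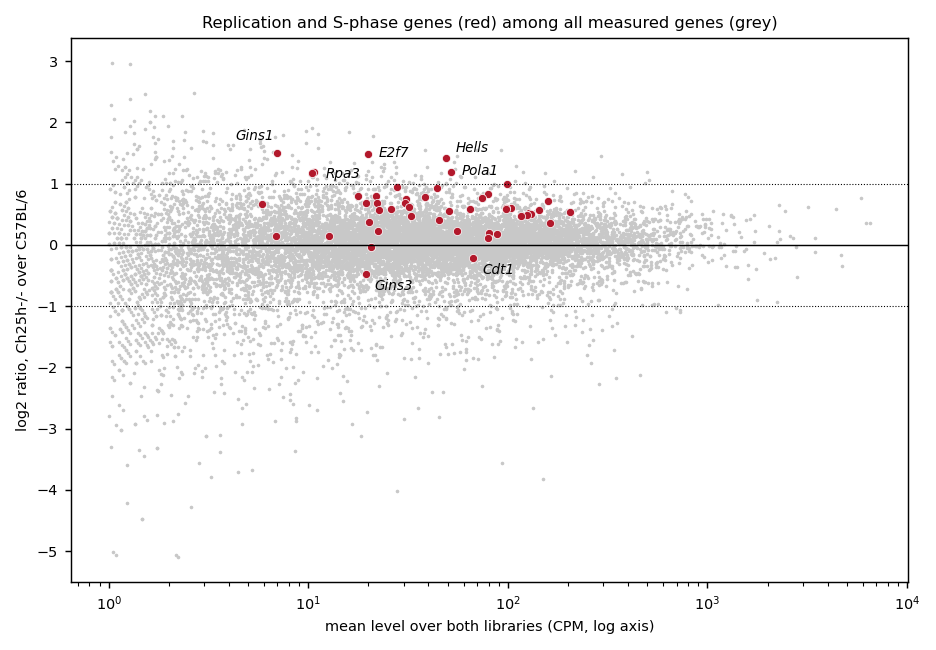
Log2 ratio (y axis, Ch25h-/- over C57BL/6) against the mean level of both libraries (x axis, CPM, log axis) for 11972 measured genes in grey and the 48 replication genes in red, with the 2-fold lines dotted. The red points lie mostly above 0 over the range from 5.85 to 204 CPM, inside the cloud of the other genes.

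In all, exons of 17 genes overlap another gene, 16 of them on the opposite strand, and since the strand setting is not stated, reads of both genes cannot be told apart there. Among the genes called at 2-fold these are E2f7 (86 bases) and Ccne2 (609 bases, with Ints8). Cdc6, Mcm7, Rfc5, Tyms and Uhrf1 also have a near-identical annotated copy that is no row of the table. The treatment of multiply matching reads is not stated, so the counts of these genes are uncertain for that reason.

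Genes of some complexes shared a ratio more closely than others. Within their own role, which is not always a single complex, 14 genes lay above and 10 below the sum of their partners beyond counting error, and for 24 the interval held 0, among them 5 of the 6 MCM2-7 genes. The range of log2 ratios was 0.26 within MCM2-7, 0.36 within replication factor C, 0.79 within replication protein A, 0.97 within primase with polymerase alpha, and 1.97 within GINS. These ranges cover from 3 to 6 genes with unlike counts and make no allowance for counting error, which is large for Gins1 and Gins2. Over the 48 genes of these shared libraries, Spearman's rho was -0.19 between the log2 ratio and the mean CPM and -0.33 between the log2 ratio and the mean TPM, as a description.

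**Figure D3:**
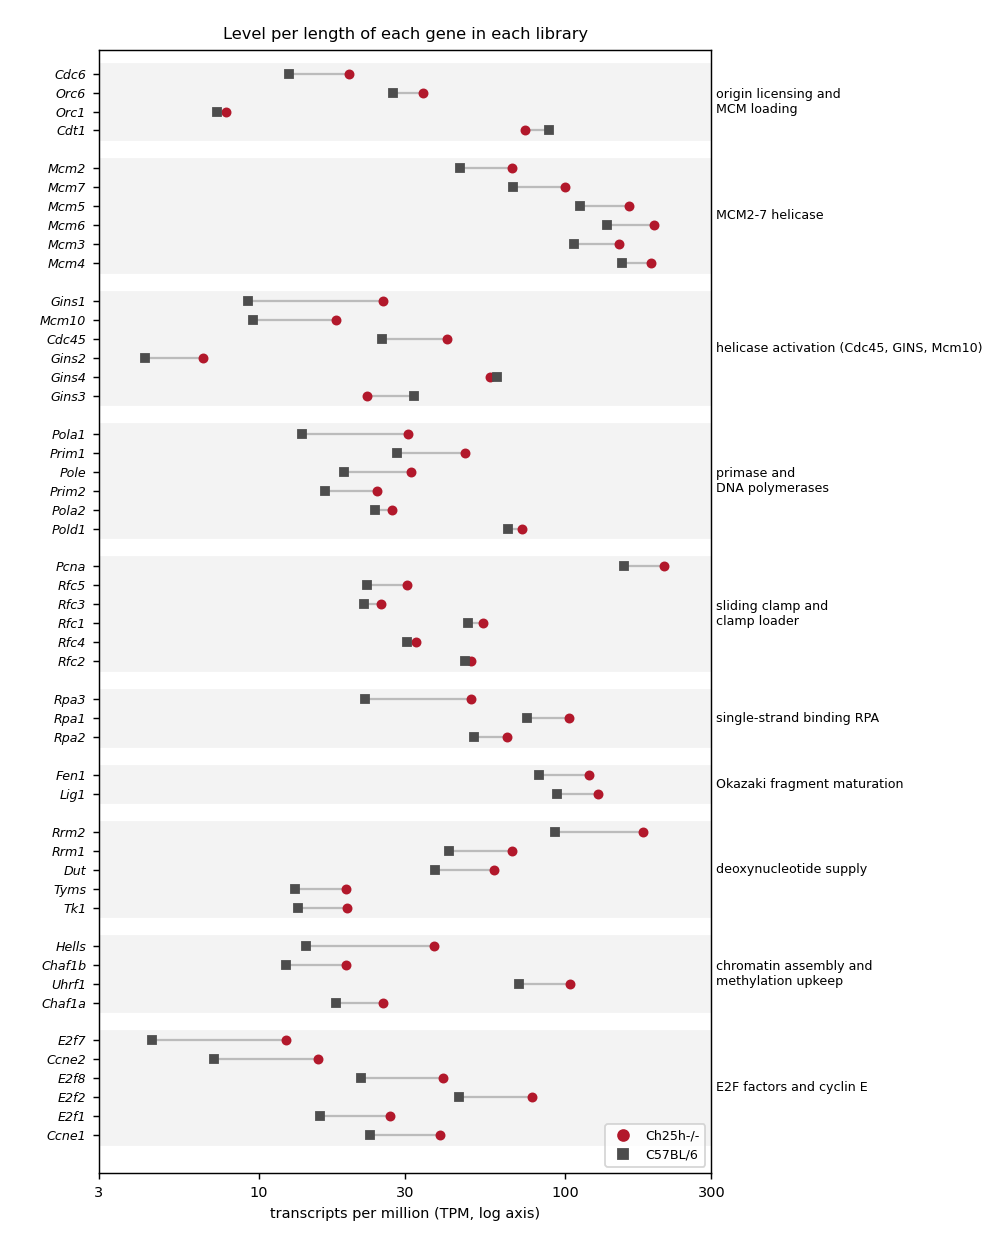
Level per exon length (x axis, TPM, log axis) of the 48 genes in the Ch25h-/- library (red circles) and the C57BL/6 library (grey squares), ordered as by log2 ratio within each role. Pcna, Mcm4 and Mcm6 are among the highest, Gins2 and Orc1 among the lowest, and the symbols of Cdt1, Gins3 and Gins4 stand in the opposite order to the rest. Of the 4097 exon bases of Gins2, 2758 overlap Gse1, so its place depends on how reads there were counted.

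The wider replication pathway had a smaller median shift in the same direction, and its lists differed. Over 5 further lists with 129 measured genes, 8 were called at least 2-fold higher and none lower, 31 were at least 1.5-fold higher and 1 lower, and the median log2 ratio was 0.33. Of all measured genes, 2.07% were called higher and 5.77% lower at 2-fold, and 7.35% higher and 11.2% lower at 1.5-fold. The other replication machinery (35 genes) had 9 genes at least 1.5-fold higher and a median of 0.34. It included the clamp-associated factor gene Pclaf (listed as 2810417H13Rik), with 104 CPM in the Ch25h-/- library and 35.6 CPM in the C57BL/6 library (1.55), and the topoisomerase gene Top2a, with 692 and 330 CPM (1.07). The polymerase delta subunit gene Pold4 stood at the low end, with 26.8 CPM in the Ch25h-/- library and 37.3 CPM in the C57BL/6 library (-0.48). Fork protection and checkpoint genes (26) had 11 at least 1.5-fold higher and a median of 0.56, led by Clspn, the mediator of checkpoint kinase activation, with 79.2 CPM in the Ch25h-/- library and 36.2 CPM in the C57BL/6 library (1.13). Of the 24 further nucleotide genes 1 was at least 1.5-fold higher, with a median of 0.19. Summed, they took 2549 CPM in the Ch25h-/- library and 2537 CPM in the C57BL/6 library (0.01, -0.01 to 0.03), although 17 lay above 0 and 7 below. Most of the sum was Samhd1, which degrades deoxynucleotides and was the most abundant of them per length. Samhd1 had 1478 CPM in the Ch25h-/- library and 1577 CPM in the C57BL/6 library (-0.09). All 15 genes of further chromatin replication had intervals above 0, with a median of 0.41, and 3 were at least 1.5-fold higher, the histone chaperone gene Asf1b highest at 47.0 CPM in the Ch25h-/- library and 21.4 CPM in the C57BL/6 library (1.13). Control genes of the G1 to S step (29 measured of 31) had 7 genes at least 1.5-fold higher, 1 lower and a median of 0.37. Among them the kinase inhibitor gene Cdkn2c was higher (40.1 CPM in the Ch25h-/- library, 19.5 CPM in the C57BL/6 library, 1.04), another inhibitor gene, Cdkn1a, had 127 and 174 CPM (-0.46), and the cyclin gene Ccnd2 had 911 and 914 CPM (-0.00).

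Mitosis genes were shifted somewhat more than replication genes. Their median was 0.82, and none of the 36 lay below 0. At 2-fold 6 were called higher, against 2.07% of all measured genes, and at 1.5-fold 30 were, against 7.35%. They were led by the kinetochore gene Nuf2 with 38.5 CPM in the Ch25h-/- library and 15.1 CPM in the C57BL/6 library (1.35). Summed counts of the 48 replication genes against those of the 36 mitosis genes gave a log2 odds ratio of -0.23 (-0.25 to -0.20), beyond counting error.

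Markers of several other cell types differed between the libraries, some higher and some lower in the Ch25h-/- library, and their part in the result was not tested. The gate on CD11b+ Ly6G- cells with low Ly6C was set to leave out neutrophils and Ly6C-high monocytes. All 16 NK cell markers were higher than in the C57BL/6 library, none was at 0 counts in either library, and their median log2 ratio was 0.76. Gzma, the most abundant of them per length, had 5274 CPM in the Ch25h-/- library and 3518 CPM in the C57BL/6 library (0.58), and Ncr1 had 429 and 156 CPM (1.46). The summed replication genes against the summed NK cell markers gave a log2 odds ratio of -0.13 (-0.15 to -0.11). The 11 neutrophil markers held 2185 CPM in the Ch25h-/- library and 1260 CPM in the C57BL/6 library and had a median of 0.93, while the 8 neutrophil precursor markers, from cells that divide, held 150 and 146 CPM with a median of 0.17. Ly6C-high monocyte markers (7) held 2960 CPM in the Ch25h-/- library and 2043 CPM in the C57BL/6 library, with a median of 0.63. Markers that were lower included those of macrophages (15 genes, 489 CPM in the Ch25h-/- library and 745 CPM in the C57BL/6 library, median -0.78), of B and plasma cells (11 genes, 663 and 1125 CPM, median -0.90) and of conventional dendritic cells (10 genes, 703 and 1675 CPM, median -1.93 over 7 measured, Xcr1 at 0 counts in the C57BL/6 library). All 15 macrophage markers, among them Cd68, Csf1r and Adgre1 (listed as Emr1), had counts in both libraries, and all 15 had a log2 ratio below 0. Ly6C-low monocyte markers (11 genes, 2237 CPM in the Ch25h-/- library and 1968 CPM in the C57BL/6 library) had a median of -0.40 although their sum was higher, and T cell markers (11 genes, 182 and 125 CPM) had a median of 0.21. Of 12 erythroid precursor markers 3 were measured, summing over the list to 317.5 CPM in the Ch25h-/- library and 180.0 CPM in the C57BL/6 library. Alas2, a heme synthesis gene, was at 0 counts in both libraries and the globin genes Hba-a1, Hbb-bs and Hbb-bt at 0 in the C57BL/6 library, while Car2 and Tfrc, the transferrin receptor gene of many dividing cells, both stood at 0.84. The other measured marker of that list, Car1, was called lower, with 7 counts in the Ch25h-/- library and 36 in the C57BL/6 library (-2.25, -3.66 to -1.06). Stem and progenitor markers (146 CPM in the Ch25h-/- library, 217 CPM in the C57BL/6 library) had a median of -0.45 over 5 measured genes of 7, with Kit at 128 CPM in the Ch25h-/- library and 195 CPM in the C57BL/6 library (-0.60).

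**Figure D4:**
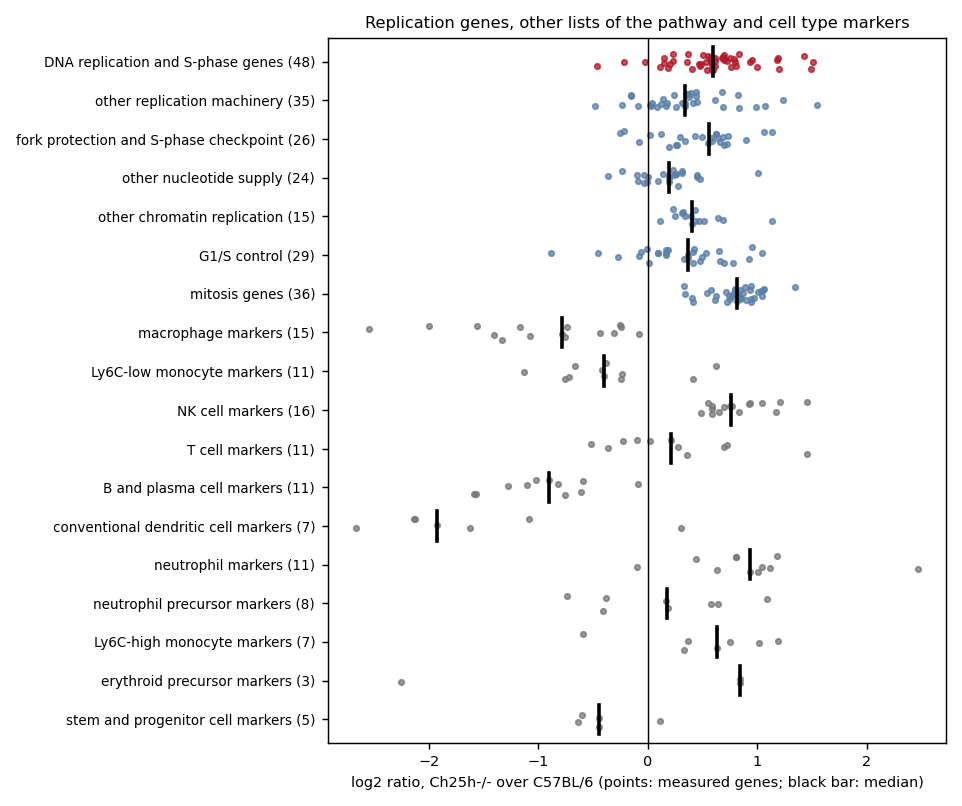
Log2 ratios (x axis, Ch25h-/- over C57BL/6) of the measured genes of each list, with the number of genes in brackets and the median as a black bar. Of the replication genes (red) 45 of 48 lie to the right of 0, as do all mitosis and NK cell genes, and macrophage, B cell and, with 1 exception, dendritic cell markers lie to the left.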

How the data were processed

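RNA sequencing was performed on 2 libraries, 1 per genotype. The deposited table holds read counts per gene as whole numbers. Per the submitters' processing notes, which give no roles or order, the builds were GRCm38 and mm10. The tools named there are edgeR 3.26.8, GSNAP, Subread 1.5.2, featureCounts and FastQC 0.11.9. The strand setting, the treatment of multiply matching or overlapping reads and the pooling of mice are not given in the sources used here.

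Counts were scaled with TMM factors (0.991 for Ch25h-/-, 1.01 for C57BL/6; edgeR 4.0.16, R 4.3.3) to CPM over the whole table. Intervals of ratios are Clopper-Pearson intervals of 1 library's share of both counts, at 95% (scipy 1.17.1, Python 3.11.15), and odds ratios are conditional with exact intervals (R). No molecular identifiers are mentioned in the labels, so reads may repeat molecules and intervals cover counting error only. The fewest counts of any of the 48 genes were 114 in the Ch25h-/- library and 62 in the C57BL/6 library. TPM used union exon lengths from GENCODE M21 (GRCm38), matched by ID for 30126 of 30538 genes. The order of different genes by TPM therefore depends on which exons are annotated. Near-identical copies were sought among GENCODE transcripts (at least 95% identity over 600 bases). Motif matches were counted by exact words on both strands. The steps were run on simulated Poisson counts, which hold no variation between mice or libraries. That run checks the code and not the calls.

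The 48 genes, their roles and the further lists were chosen with earlier results of these data known. Within each role, the genes with the largest and smallest ratio and the most abundant one get full values. The other lists name genes at their ends and the most abundant one, and some genes are not reported here. Pairs set against each other by odds ratio were chosen after their values were seen, and so were the macrophage genes named and markers named for having 0 counts. Alternative scalings were by DESeq2 1.42.0, by library totals and by the upper quartile. Other alternatives raised the filter to 5 CPM, lowered it to any count, added 2 counts as a prior, or required the whole interval to lie past the threshold. Figures were drawn with matplotlib 3.10.9.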

Additional observations from a re-analysis of the deposited data

How the results depend on the processing

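Rescaling moved every log2 ratio by the same amount, at most 0.03 in size, so neither the order of the 48 genes nor any odds ratio could change. Of 192 recomputed ratios of single genes, 189 kept their direction and their standing by the 2-fold rule. The other 3, all of them Rrm2, lost the 2-fold call, and none reversed. Changes of the 1.5-fold call are not part of this count. The 10 summed roles stayed inside their intervals under the 3 scalings tried on them. An interval wholly beyond the threshold left 4 of 7 genes at 2-fold and 13 of 26 at 1.5-fold, as a stricter rule can only remove calls. Under that rule 0.56% and 3.07% of all measured genes were called higher. The other scalings, filters and the prior count gave 6 to 7 genes higher at 2-fold and 22 to 27 at 1.5-fold. None was lower, 45 were above 0, and medians ran from 0.56 to 0.60. Over all genes passing each filter, 1.19% to 2.64% were higher at 2-fold and 6.47% to 7.69% at 1.5-fold. The shares called lower were 3.44% to 6.53% and 8.46% to 11.8%, and 48.7% to 54.2% lay above 0. An alternative chosen after seeing the data left out the 17 genes whose exons overlap another gene. Of the remaining 31 genes, 28 were above 0, 5 were called at 2-fold and 18 at 1.5-fold, with a median of 0.61. The share called among all genes free of overlap was not computed. Depth limits Gins1, Gins2 and Orc1 most, whose counting intervals are the widest of the 48. No paired analysis was possible because each genotype has 1 library.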
